A study of Mus musculus with 12 samples.

Results

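The mitochondrial carrier family, SLC25, is the set of membrane proteins that move metabolites, nucleotides and cofactors across the inner mitochondrial membrane. Its genes were taken from the count table by symbol, as every gene named Slc25a followed by a number and every gene named Ucp1, Ucp2 or Ucp3, and 41 of the 12752 genes in the table met this rule. All 41 are protein-coding and all passed the filter on low counts. In the GENCODE M21 annotation of GRCm38 the same rule takes 50 coding genes, and the other 9 (Slc25a2, Slc25a18, Slc25a21, Slc25a31, Slc25a41, Slc25a43, Slc25a48, Slc25a54 and Ucp1) are not analysed here.

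Carriers of this family are built from repeats of a common membrane-spanning unit and work mostly as exchangers, taking one solute in as another leaves. The ADP/ATP carriers export the ATP made by oxidative phosphorylation and return ADP, and the phosphate carrier supplies the other substrate of ATP synthase. Other members connect the matrix to the cytosol for the malate-aspartate shuttle, fatty acid import, amino acid breakdown, cofactor supply and iron delivery, and the uncoupling proteins are close relatives that can let protons back into the matrix or exchange small metabolites. Contracting muscle depends on these routes for its ATP supply.

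RNA was sequenced from tibialis anterior muscle of male C57BL/6 mice to learn how expression changes when Dux is induced. Dux encodes a double-homeobox transcription factor, and its human relative DUX4 is expressed out of place in muscle of patients with facioscapulohumeral dystrophy. All muscles received AAV:TET when the mice were 8 weeks old, together with either the empty vector AAV:MCS or, in the opposite limb, AAV:Dux, and 7 days later the mice went onto standard chow or chow with doxycycline at 600 mg/kg. The 4 groups of 3 libraries are the empty vector on standard chow (EV), the empty vector on doxycycline (EV_DOX), the Dux vector on standard chow (DUX) and the Dux vector on doxycycline (DUX_DOX). The labels give 2 or 7 days on the chow without saying which applies to these libraries, and do not name the promoter that drives Dux. They do not say that the libraries of a group came from separate animals, so p-values measure the spread between libraries. Muscles of EV and DUX, or of EV_DOX and DUX_DOX, may come from the same mice, and the main fit took all libraries as independent.

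The libraries held 11880593 to 13811999 counts. The transcript AW822073, which lies beside Dux and was read because Dux itself is not analysed here, had 37, 60 and 46 counts in the DUX_DOX libraries and 0 to 2 in the other 9. Muscle fibre markers had by far the highest sum of the marker lists in every library, at 113204 to 153572 CPM (counts scaled to a common TMM-adjusted library total) over the 12 markers measured. Tenocyte markers stood apart in EV 3 and EV_DOX 1, at 1038 and 969 CPM in sum, against 106 to 323 CPM in the other 10 libraries. EV_DOX 3 had 133 CPM of them and the lowest sum of macrophage and monocyte markers of all libraries, at 135 CPM. In whole muscle, fewer cells of a type and less RNA per cell cannot be told apart.

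Muscle carrier expression was dominated by one gene, the ADP/ATP carrier Slc25a4, known as ANT1. Its level per kilobase of exon averaged 1415 CPM over the 12 libraries, which was 72.0% of the summed level per kilobase of all 41 members. The oxoglutarate/malate carrier Slc25a11 followed at 128 CPM per kilobase, the phosphate carrier Slc25a3 at 121, the aspartate/glutamate carrier Slc25a12 at 74.4 and the muscle uncoupling protein Ucp3 at 39.7. The range of Slc25a4 over the libraries, 978 to 1764 CPM per kilobase, did not overlap that of Slc25a11, whereas each of the next 4 members overlapped its neighbour in the order. The lowest member was Slc25a13, the liver-type aspartate/glutamate carrier citrin, at 0.204 CPM per kilobase. The uncoupling protein of brown fat, Ucp1, is among the genes not analysed here, and the brown adipocyte markers that were measured, Dio2, Zic1 and Prdm16, summed to 7.62 to 12.0 CPM.

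**Figure D1:**
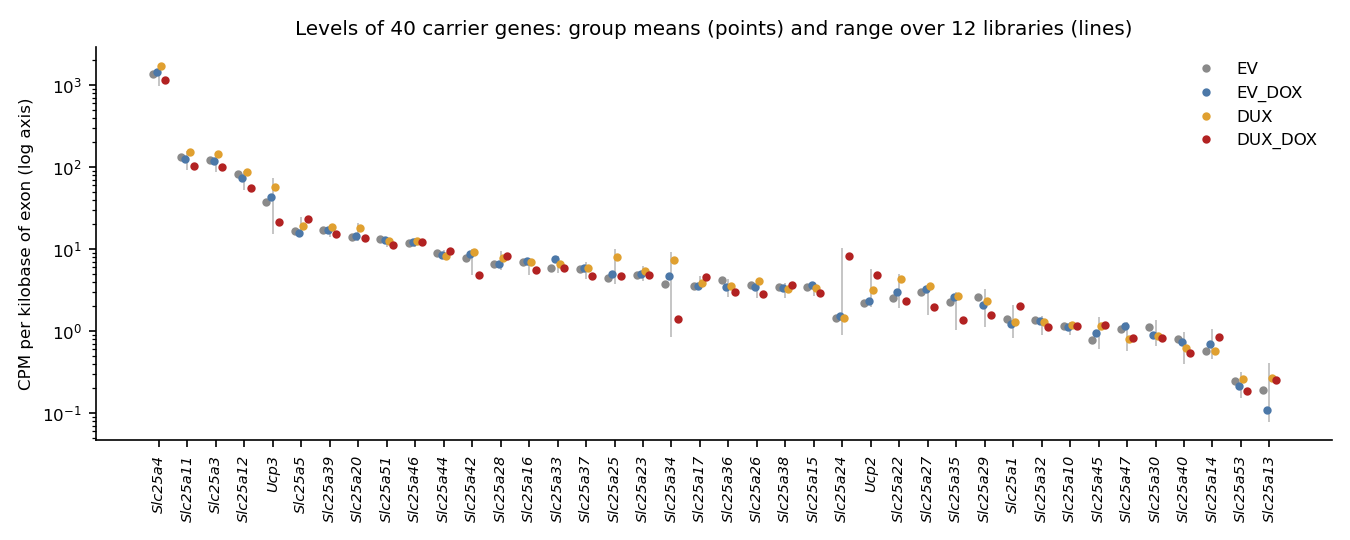
Level of 40 of the 41 carrier genes in CPM per kilobase of exon, on a log axis, ordered by the mean over 12 libraries; points are group means of 3 libraries and grey lines the range over the 12 libraries. Slc25a4 lies about a log10 unit above every other member, and the DUX_DOX means of Slc25a24 and Slc25a34 stand away from those of the other 3 groups.

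With Dux induced, more members of the family fell than rose. Against EV_DOX, 5 members rose and 10 fell in edgeR's quasi-likelihood test (Benjamini-Hochberg adjusted p under 0.05 over 12751 genes), and 26 did not pass. Over all genes tested 25.3% were called, 14.9% higher and 10.3% lower, beside 12.2% and 24.4% of the carriers, so the rising share lay slightly below that of all genes and the falling share above it. The median log2 fold change of the 41 members was -0.21, against -0.01 over all genes, and 29 members had values below 0. Against DUX, 4 members rose, 16 fell and 21 did not pass, beside 29.6% of all genes called, 16.5% higher and 13.1% lower (9.76% and 39.0% of the carriers), with a median of -0.22 against 0.01 over all genes. Both comparisons share the DUX_DOX libraries and are given side by side. The DUX group stood above the empty vector groups in the summed level of all 41 members. Its mean was 6833 CPM, against 5649 in EV, 5741 in EV_DOX and 4739 in DUX_DOX, so falls against DUX were larger than those against EV_DOX in part through high DUX values. Leaving out EV_DOX 3 reduced the lower calls against EV_DOX to 5, and the higher calls were 3 without EV_DOX 1 (with 12 lower), EV_DOX 3 or DUX_DOX 3. Against DUX, 2 higher calls were left without DUX 1, DUX 2, DUX_DOX 1 or DUX_DOX 3.

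The 4 members that rose in both comparisons were the ATP-Mg/phosphate carrier Slc25a24, the uncoupling protein Ucp2, the ADP/ATP carrier Slc25a5 and the citrate carrier Slc25a1. Their 3 DUX_DOX libraries lay above all 9 other libraries, a pattern that 15.7% of all genes showed. In the same comparison with EV_DOX, 18 of 20 macrophage and monocyte markers rose, from a sum of 135 to 194 CPM to one of 351 to 506 CPM, and their part in these rises was not tested. The 7 that fell in both were Slc25a34, Ucp3, Slc25a35, Slc25a42, Slc25a27, Slc25a12 and Slc25a16. In 11 members, these 7 and Slc25a15, Slc25a26 and Slc25a51 among them, all DUX_DOX libraries lay below the other 9, beside 10.8% of all genes. Compared group by group, DUX_DOX lay above EV_DOX without overlap in 8 members and below it in 12 (21.4% and 17.3% of all genes), and above DUX in 5 and below it in 20 (26.0% and 22.6%).

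**Figure D2:**
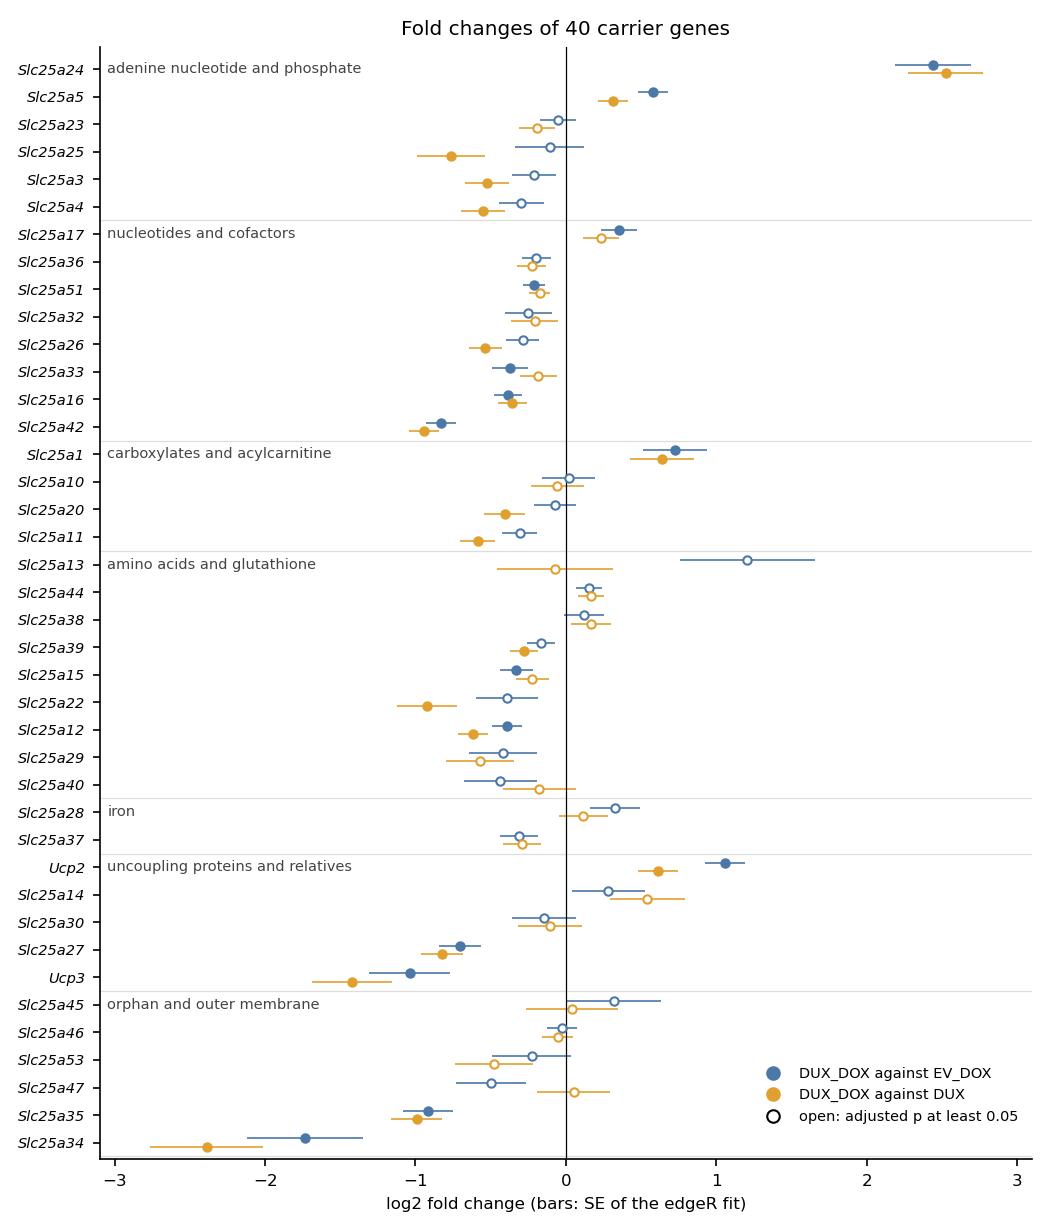
log2 fold change of 40 of the 41 carrier genes in DUX_DOX against EV_DOX (blue) and against DUX (orange), grouped by transported substrate, with bars for the standard error of the edgeR fit and filled points where the adjusted p was under 0.05. Slc25a24 reaches 2.44 and 2.52 on the right, and Slc25a34 reaches -1.74 and -2.39 on the left.

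Among the members called both against EV_DOX and against DUX that have a promoter window in the RefSeq table (GRCm38.p6), Slc25a24 and Ucp2 rose most against EV_DOX and Slc25a34 and Ucp3 fell most. Their promoters are shown as the 250 bases before the annotated start, 5′ to 3′ on the gene's strand, because all 4 hold the hexamer CAGCTG, an E-box of the kind bound by MyoD and other muscle basic helix-loop-helix factors, which is printed in capitals.
Slc25a24 (chr3:109122899-109123148, plus strand): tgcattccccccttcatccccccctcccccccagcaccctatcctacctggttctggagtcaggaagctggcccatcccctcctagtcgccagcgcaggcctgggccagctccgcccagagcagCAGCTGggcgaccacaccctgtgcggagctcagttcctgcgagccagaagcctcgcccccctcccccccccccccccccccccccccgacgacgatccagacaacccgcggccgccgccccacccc
Ucp2 (chr7:100493108-100493357, plus strand): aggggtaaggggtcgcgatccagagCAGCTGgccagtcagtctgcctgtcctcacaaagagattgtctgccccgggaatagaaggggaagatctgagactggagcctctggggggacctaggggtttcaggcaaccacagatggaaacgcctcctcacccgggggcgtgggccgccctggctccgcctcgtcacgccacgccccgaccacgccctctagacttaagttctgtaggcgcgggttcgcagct
Slc25a34 (chr4:141623835-141624084, minus strand): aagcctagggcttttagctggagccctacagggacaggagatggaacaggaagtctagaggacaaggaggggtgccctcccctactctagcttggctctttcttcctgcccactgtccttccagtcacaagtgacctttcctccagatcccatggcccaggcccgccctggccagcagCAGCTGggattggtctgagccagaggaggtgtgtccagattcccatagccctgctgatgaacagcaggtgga
Ucp3 (chr7:100472741-100472990, plus strand): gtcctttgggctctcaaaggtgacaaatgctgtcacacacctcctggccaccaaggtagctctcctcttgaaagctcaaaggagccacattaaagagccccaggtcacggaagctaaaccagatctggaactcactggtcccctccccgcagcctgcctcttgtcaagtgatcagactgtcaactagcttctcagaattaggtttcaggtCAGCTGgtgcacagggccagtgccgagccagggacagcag
The hexamer begins 126 bases before the start in Slc25a24, 225 in Ucp2, 72 in Slc25a34 and 40 in Ucp3. Each window has 300 bases (250 before and 50 after the start), and motifs were searched only in the 250 before it. The hexamer reads the same on both strands. It occurred in 6 of the 41 windows that 32 members have in the table, or 14.6%, and in 13.0% of all 32851 windows. Slc25a53, which was not called in any comparison, held it as well. The hexamer was 1 of 11 motifs searched, and it was printed because these 4 promoters share it. A link between it and the changes was not tested. The 2 rising promoters had GC contents of 72.8% and 63.6% with 14 and 16 CpG, and the 2 falling ones 58.4% and 54.8% with 1 and 3 CpG. Other members that fell in both comparisons were mixed. The promoters of Slc25a42 and Slc25a16 had GC contents of 63.6% and 60.8% with 18 CpG each, and that of Slc25a12 had 49.6% with 6 CpG. Slc25a35 and Slc25a27 have no window. The medians over all windows were 52.4% GC and 6 CpG. Of the other 10 motifs searched on both strands, the GC box GGGCGG was found in 75.6% of member windows against 32.7% of all, CCAAT in 48.8% against 33.8%, the Ets core CCGGAAG in 12.2% against 6.91%, and the cyclic AMP element TGACGTCA in 2 windows, those of Slc25a25 and Slc25a36 (4.88% against 1.55%). The TATA box TATAAA was in none of the member windows and in 12.4% of all, and the element TCAAGGTCA of oestrogen-related receptors was in none and in 0.387%.

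Among the carriers of adenine nucleotides and phosphate, Slc25a24 and Slc25a5 rose while the main muscle form Slc25a4 did not pass the test against EV_DOX. Slc25a24 (chr3:109123149-109168457) encodes a calcium-regulated carrier that exchanges ATP-Mg for phosphate and so sets the adenine nucleotide content of the matrix. It stood at 5.49, 3.61 and 5.83 CPM in EV, 6.42, 6.27 and 3.05 in EV_DOX, 4.90, 4.31 and 5.68 in DUX and 21.4, 35.8 and 28.6 in DUX_DOX. The 9 uninduced libraries were all near the same low level, and every DUX_DOX library was well above them. The increase was 5.43-fold against EV_DOX, or 2.44 on the log2 scale (SE 0.25; edgeR quasi-likelihood test, adjusted p = 8.40e-06), and 2.52 against DUX (SE 0.25, adjusted p = 7.07e-06).

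The other calcium-regulated ATP-Mg/phosphate carriers did not follow Slc25a24. Slc25a23 had log2 fold changes of -0.05 against EV_DOX and -0.19 against DUX and was called in neither, with a 95% interval of -0.29 to 0.18 for the first. Slc25a25, an activity- and stress-responsive paralogue, was not called against EV_DOX (-0.11, SE 0.23) and fell by 0.76 on the log2 scale against DUX (SE 0.23; edgeR, adjusted p = 0.0209). Its DUX libraries held 79.2, 41.9 and 65.2 CPM, and the call was lost in edgeR without DUX 1 (-0.55, adjusted p = 0.110), DUX 3 (-0.73, adjusted p = 0.0602) or DUX_DOX 3 (-0.63, adjusted p = 0.0944). DUX 1 and DUX 3 were the highest of all 12 libraries for this gene, and DUX_DOX (41.2, 39.0 and 29.5 CPM) overlapped both EV and EV_DOX. Reads of Slc25a25 and of Naif1, which overlaps it on the opposite strand over 379 bases, cannot be told apart where counting ignored strand, and Naif1 also fell against DUX, by 0.51 on the log2 scale (adjusted p = 0.0233 in edgeR).

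The ADP/ATP carriers differed in their response. Slc25a5 (chrX:36795651-36798807), the form of proliferating and non-muscle cells known as ANT2, stood at 28.8, 29.1 and 23.0 CPM in EV, 24.4, 25.8 and 27.7 in EV_DOX, 30.4, 30.4 and 32.5 in DUX and 40.8, 35.2 and 40.3 in DUX_DOX. All DUX_DOX libraries were above the other 9, with DUX slightly above both empty vector groups. It rose 1.49-fold against EV_DOX, 0.58 on the log2 scale (SE 0.10; edgeR, adjusted p = 0.000896), and by 0.32 against DUX (SE 0.10, adjusted p = 0.0279), a call that was lost in edgeR when DUX 1, DUX 2, DUX_DOX 1, DUX_DOX 3 or EV_DOX 2 was left out (adjusted p from 0.0506 to 0.0890). Slc25a5 has an annotated processed pseudogene, Slc25a5-ps, and reads of near-identical copies could be split by the counting.

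Slc25a4 (chr8:46206797-46211284) stood at 3070, 3648 and 2879 CPM in EV, 2728, 3303 and 4057 in EV_DOX, 4151, 3936 and 3968 in DUX and 3040, 2302 and 2878 in DUX_DOX. DUX_DOX lay below every DUX library and overlapped EV_DOX and EV. The log2 difference was -0.55 against DUX (SE 0.15; edgeR, adjusted p = 0.0126) and -0.30 against EV_DOX (SE 0.15, adjusted p = 0.160). The first call was lost without DUX_DOX 2 (-0.45, adjusted p = 0.0597). On the level per kilobase, Slc25a4 exceeded Slc25a5 by 45.8 to 52.2 times in the DUX_DOX libraries and by 74.5 to 102 times in the other 9, with no overlap. Slc25a3, the phosphate carrier, had values like those of Slc25a4, with -0.21 against EV_DOX (adjusted p = 0.306) and a fall of 0.53 on the log2 scale against DUX (SE 0.15; edgeR, adjusted p = 0.0152), not called without DUX_DOX 2 (-0.44, adjusted p = 0.0698).

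Of the 9 carriers of nucleotides and cofactors, 1 rose and 4 fell against EV_DOX, and 4 fell against DUX. Over all genes, 14.9% rose and 10.3% fell against EV_DOX, and 13.1% fell against DUX. Slc25a42 (chr8:70184340-70212305), which brings coenzyme A into the matrix, had the smallest p of any falling member. It stood at 52.0, 47.4 and 40.7 CPM in EV, 48.9, 49.1 and 57.3 in EV_DOX, 55.7, 51.9 and 59.7 in DUX and 28.7, 29.7 and 28.8 in DUX_DOX. The DUX_DOX libraries agreed closely with each other and lay below all 9 others. The fall was 0.83 on the log2 scale against EV_DOX (SE 0.10; edgeR, adjusted p = 3.97e-05), to 0.561 of the EV_DOX level, and 0.94 against DUX (SE 0.10, adjusted p = 1.26e-05).

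Slc25a16, a carrier also linked to coenzyme A, fell by 0.39 on the log2 scale against EV_DOX (SE 0.09; edgeR, adjusted p = 0.00877) and by 0.36 against DUX (adjusted p = 0.0120), the second not called without DUX_DOX 3 (-0.27, adjusted p = 0.0561). The pyrimidine nucleotide carrier Slc25a33 fell by 0.37 (SE 0.12, adjusted p = 0.0347 in edgeR) and the NAD carrier Slc25a51 by 0.21 (SE 0.07, adjusted p = 0.0412) against EV_DOX, and neither was called against DUX (-0.18 and -0.17). Slc25a51 was the steadiest member over the 9 uninduced libraries, with a coefficient of variation of 4.25%. The S-adenosylmethionine carrier Slc25a26 fell against DUX, by 0.54 on the log2 scale (edgeR, adjusted p = 0.00247), and had a value of -0.29 against EV_DOX (adjusted p = 0.0732). The single riser of the group was Slc25a17, which serves peroxisomes and not mitochondria: it stood at 0.35 against EV_DOX (SE 0.12; edgeR, adjusted p = 0.0433), and the call was lost in 12 of the 20 alternatives. Slc25a32, which carries folate and FAD, and Slc25a36, the other pyrimidine nucleotide carrier, were called in neither comparison (-0.25 and -0.20 against EV_DOX).

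The calls of Slc25a51, Slc25a33 and Slc25a15 against EV_DOX were also fragile. Slc25a51 was not called in 10 of 20 alternatives and Slc25a33 in 5, each of them with log2 values that stayed below 0 in all 20. Slc25a15, the ornithine carrier of the urea cycle, stood at -0.33 (SE 0.11; edgeR, adjusted p = 0.0380) and was not called in 8 of 20, with values from -0.41 to -0.27.

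Among the 4 carriers of carboxylates and acylcarnitine, the citrate carrier was higher and the shuttle carriers were lower against DUX. Slc25a1 (chr16:17925223-17928219) exports citrate for fatty acid synthesis and was low throughout, at 2.82, 2.89 and 3.38 CPM in EV, 2.56, 3.49 and 1.80 in EV_DOX, 2.85, 3.08 and 2.39 in DUX and 4.49, 4.15 and 4.33 in DUX_DOX. The DUX_DOX libraries were above all others. It rose by 0.72 on the log2 scale against EV_DOX (SE 0.21; edgeR, adjusted p = 0.0230) and by 0.64 against DUX (SE 0.21, adjusted p = 0.0348), calls that were lost in 5 and 7 of 20 alternatives, with adjusted p up to 0.0935 and 0.122. Slc25a11, the oxoglutarate/malate exchanger of the malate-aspartate shuttle, fell by 0.59 against DUX (SE 0.12, adjusted p = 0.00225 in edgeR) and stood at -0.31 against EV_DOX (adjusted p = 0.0722). The carnitine/acylcarnitine carrier Slc25a20, which passes fatty acids to beta-oxidation, fell by 0.41 against DUX (SE 0.14; edgeR, adjusted p = 0.0378) and was at -0.07 against EV_DOX (95% interval -0.34 to 0.20), and leaving out DUX 1, DUX 3, DUX_DOX 1 or DUX_DOX 2 ended the call. The dicarboxylate carrier Slc25a10 was within 0.06 of 0 in both comparisons and was not called.

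Of the 9 carriers of amino acids and glutathione, 2 fell against EV_DOX, 3 fell against DUX and none rose. Over all genes, 10.3% fell against EV_DOX and 13.1% against DUX. Slc25a12, known as aralar, exchanges aspartate for glutamate and is the other carrier of the malate-aspartate shuttle. It stood at 589, 657 and 553 CPM in EV, 490, 524 and 607 in EV_DOX, 655, 631 and 609 in DUX and 443, 383 and 410 in DUX_DOX. All DUX_DOX libraries were the lowest, with EV_DOX 1 nearest to them. The fall was 0.39 on the log2 scale against EV_DOX (SE 0.10; edgeR, adjusted p = 0.0115) and 0.62 against DUX (SE 0.10, adjusted p = 0.000481), and the first was not called without EV_DOX 3 (-0.30, adjusted p = 0.0569). Its paralogue Slc25a13 had a log2 fold change of 1.21 against EV_DOX that was not called (SE 0.45; edgeR, adjusted p = 0.0634), at levels of 0.292 to 1.55 CPM.

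The glutamate carrier Slc25a22 was called against DUX and not against EV_DOX: it held 29.9, 19.3 and 29.1 CPM in DUX and 11.6, 14.6 and 15.1 in DUX_DOX, beside 16.7, 14.9 and 22.5 in EV_DOX. EV held 14.7, 18.9 and 11.8 CPM. DUX_DOX was below all DUX libraries, overlapped EV_DOX narrowly and overlapped EV. DUX 1 and DUX 3 were the highest of all libraries for this gene. The fall against DUX was 0.92 on the log2 scale (SE 0.20; edgeR, adjusted p = 0.00380), and the value against EV_DOX was -0.39 (SE 0.21, adjusted p = 0.181). The glutathione carrier Slc25a39 fell by 0.28 against DUX (SE 0.09; edgeR, adjusted p = 0.0378), a call lost in 5 of 20 alternatives, and its paralogue Slc25a40 did not pass in either comparison. The glycine carrier Slc25a38, the branched-chain amino acid carrier Slc25a44 and the basic amino acid carrier Slc25a29 were not called, with values against EV_DOX of 0.12, 0.15 and -0.42. Neither iron carrier was called: mitoferrin-2, Slc25a28, stood at 0.33 against EV_DOX (adjusted p = 0.164 in edgeR) and mitoferrin-1, Slc25a37, at -0.31 (adjusted p = 0.0863).

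The 2 uncoupling proteins of the table moved in opposite directions. Ucp2 (chr7:100493337-100502020), the form found in many tissues and abundant in macrophages and other immune cells, stood at 13.8, 14.9 and 17.6 CPM in EV, 17.2, 15.3 and 15.9 in EV_DOX, 24.2, 19.2 and 22.7 in DUX and 32.2, 28.7 and 40.0 in DUX_DOX. The DUX libraries were above all empty vector libraries, and the DUX_DOX libraries were above DUX. Ucp2 rose 2.09-fold against EV_DOX, 1.06 on the log2 scale (SE 0.13; edgeR, adjusted p = 6.11e-05), and by 0.61 against DUX (SE 0.13, adjusted p = 0.00332). Its promoter, printed above, is the one of the 4 with the most CpG.

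Ucp3 (chr7:100472990-100486432), the skeletal muscle form, which is induced by fatty acids and fasting, lies 6904 bases upstream of Ucp2 on the same strand. It stood at 147, 113 and 89.8 CPM in EV, 109, 116 and 185 in EV_DOX, 228, 118 and 188 in DUX and 47.9, 67.4 and 84.2 in DUX_DOX. Every DUX_DOX library was below the other 9, though the highest of them came close to EV 3, and the uninduced libraries spread widely. Ucp3 fell by 1.04 on the log2 scale against EV_DOX (SE 0.27; edgeR, adjusted p = 0.0116) and by 1.42 against DUX (SE 0.27, adjusted p = 0.00140). Without EV_DOX 3 the first value was -0.76 with an adjusted p of 0.0566. On the level per kilobase, Ucp3 exceeded Ucp2 by 11.4 to 25.9 times in the 9 uninduced libraries and by 3.32 to 5.23 times in DUX_DOX, with no overlap.

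Of the relatives of the uncoupling proteins, Slc25a27, known as UCP4 and described mainly in brain, fell. Slc25a27 (chr17:43641891-43667214) stood at 12.4, 12.7 and 10.2 CPM in EV, 12.0, 12.6 and 13.5 in EV_DOX, 14.2, 13.9 and 13.4 in DUX and 8.99, 8.22 and 6.18 in DUX_DOX, which was below all other libraries. The fall was 0.71 against EV_DOX (SE 0.14; edgeR, adjusted p = 0.00207) and 0.82 against DUX (SE 0.14, adjusted p = 0.000567), on the log2 scale. Slc25a14 and Slc25a30 were not called, at 0.28 and -0.15 against EV_DOX.

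Among the 6 orphan and outer membrane members, Slc25a34 and Slc25a35, a pair of paralogues whose substrates are not settled, fell and the other 4 were called in no comparison. Slc25a34 (chr4:141618824-141623821) had the largest fall of the family. It stood at 7.84, 14.5 and 7.83 CPM in EV, 9.56, 8.98 and 18.9 in EV_DOX, 24.6, 11.8 and 22.3 in DUX and 4.34, 2.29 and 4.64 in DUX_DOX. The DUX_DOX libraries were below all others, while EV_DOX 3, DUX 1 and DUX 3 were the highest. It fell by 1.74 on the log2 scale against EV_DOX (SE 0.38; edgeR, adjusted p = 0.00457), to 0.300 of the EV_DOX level, and by 2.39 against DUX (SE 0.38, adjusted p = 0.000366).

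Slc25a35 (chr11:68968131-68974365) stood at 9.01, 8.18 and 7.90 CPM in EV, 9.05, 8.60 and 10.8 in EV_DOX, 8.62, 10.9 and 10.4 in DUX and 6.02, 5.22 and 3.79 in DUX_DOX. The 9 uninduced libraries were tight and all above DUX_DOX. It fell by 0.92 on the log2 scale against EV_DOX (SE 0.17; edgeR, adjusted p = 0.00129) and by 0.99 against DUX (SE 0.17, adjusted p = 0.000611). Rangrf overlaps 31.3% of its exon bases on the opposite strand, so that reads of both genes cannot be told apart there where counting ignored strand, and was itself at 0.04 against EV_DOX (adjusted p = 0.886) and -0.44 against DUX (adjusted p = 0.0763) in edgeR. Slc25a46, an outer membrane protein of mitochondrial dynamics and lipid transfer, was at -0.03 against EV_DOX with a 95% interval of -0.22 to 0.17. Slc25a45, Slc25a47 and Slc25a53 had values of 0.32, -0.50 and -0.23 and were not called.

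**Figure D3:**
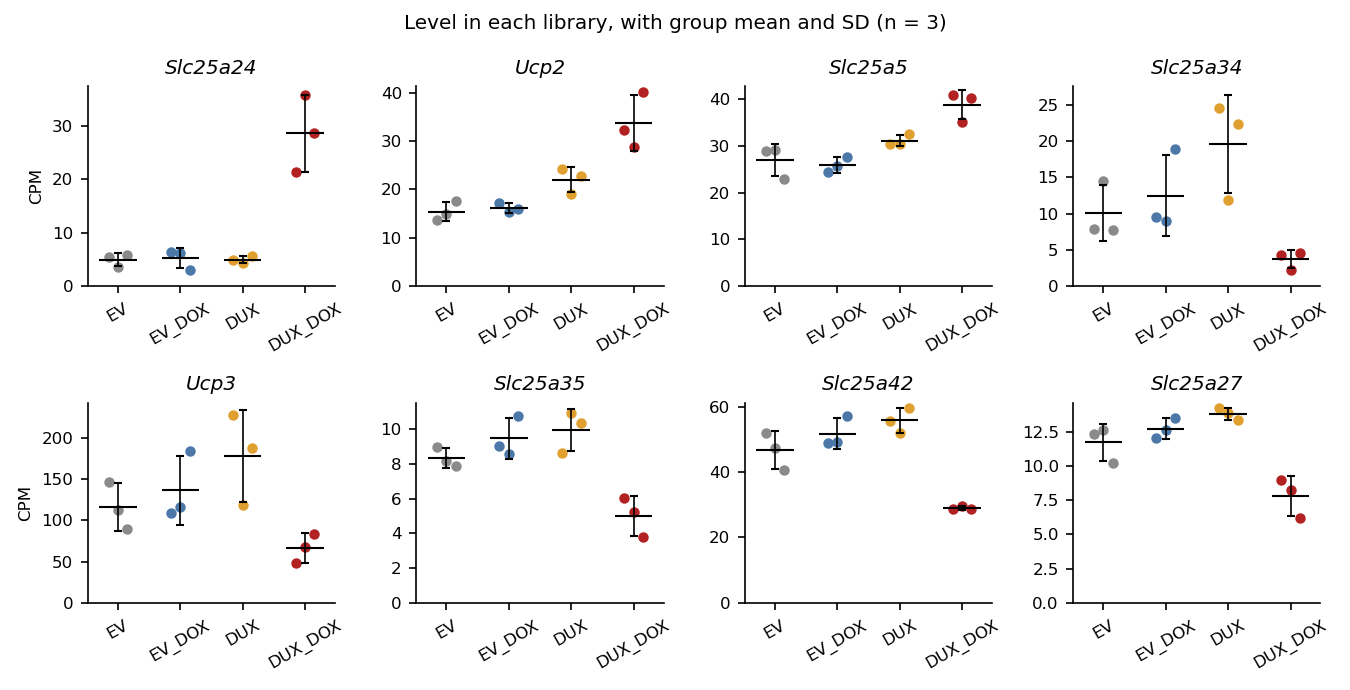
CPM of 8 carrier genes in each library (points) with the group mean and SD (n = 3 libraries) in EV, EV_DOX, DUX and DUX_DOX; axes start at 0. DUX_DOX lies above the other 9 libraries for Slc25a24, Ucp2 and Slc25a5 and below them for Slc25a34, Ucp3, Slc25a35, Slc25a42 and Slc25a27.

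The Dux vector without doxycycline gave no called member against the empty vector, and neither did doxycycline alone. In DUX against EV edgeR called 0 of 41 members and 0.0% of all genes, with 10 members at an unadjusted p under 0.05 and a lowest adjusted p of 0.192. Of the 41 log2 fold changes 28 were above 0, with a median of 0.12 against 0.00 over all genes. DESeq2 called 2 members higher, Slc25a25 (0.84, adjusted p = 0.0190) and Ucp2 (0.51, adjusted p = 0.0487), beside 60 higher and 93 lower of all 12752 genes in DESeq2, and limma-voom called 0 members. The largest values of this comparison were 0.96 for Slc25a34, 0.84 for Slc25a25, 0.79 for Slc25a22 and 0.61 for Ucp3. In EV_DOX against EV, edgeR, DESeq2 and limma-voom each called 0 members, beside 0.0392% of all genes in edgeR, and 2 members had an unadjusted p under 0.05, Slc25a33 at 0.35 and Slc25a36 at -0.31 (edgeR, adjusted p = 0.529 and 0.466).

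The uninduced libraries were not alike for all carriers. Over the 9 of them the coefficient of variation was 45.8% for Slc25a34, 37.5% for Slc25a25, 32.3% for Ucp3 and 32.0% for Slc25a22, against 15.4% for Slc25a4. DUX 1, DUX 3 and EV_DOX 3 were the highest 3 of the 9 for 7 members (Slc25a4, Slc25a20, Slc25a22, Slc25a34, Slc25a42 and Ucp3 among them), a pattern held by 2.34% of all genes. This set of libraries was picked from these same data, so the counts are a description only.

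The effect of the Dux vector differed between the chows for 8 members, 1 with a higher and 7 with a lower effect on doxycycline, by the interaction term of the edgeR fit (adjusted p under 0.05, beside 6.97% and 3.43% of all genes). Slc25a24 had a vector effect of 0.00 on standard chow and 2.44 on doxycycline, an interaction of 2.45 (SE 0.38; edgeR, adjusted p = 0.000966). The interaction was -1.09 for Slc25a42 (SE 0.14; adjusted p = 0.000258 in edgeR), -2.70 for Slc25a34 (SE 0.51), -1.65 for Ucp3 (SE 0.38), -1.17 for Slc25a35, -0.94 for Slc25a27 and -1.18 for Slc25a22. For these 6 the vector effect on standard chow was above 0 and that on doxycycline below 0. The number of members with a lower effect was 13 without EV 2 and 12 without EV_DOX 1, and 2 had a higher effect without EV 3 or EV_DOX 2. Over all genes the lower calls moved in the same way, from 437 to 670 without EV 2 and to 899 without EV_DOX 1, while the higher calls went from 889 to 619 without EV 3 and to 681 without EV_DOX 2. Ucp2 and Slc25a5 were not called in the interaction (0.55 and 0.37; adjusted p = 0.0803 and 0.108 in edgeR).

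**Figure D4:**
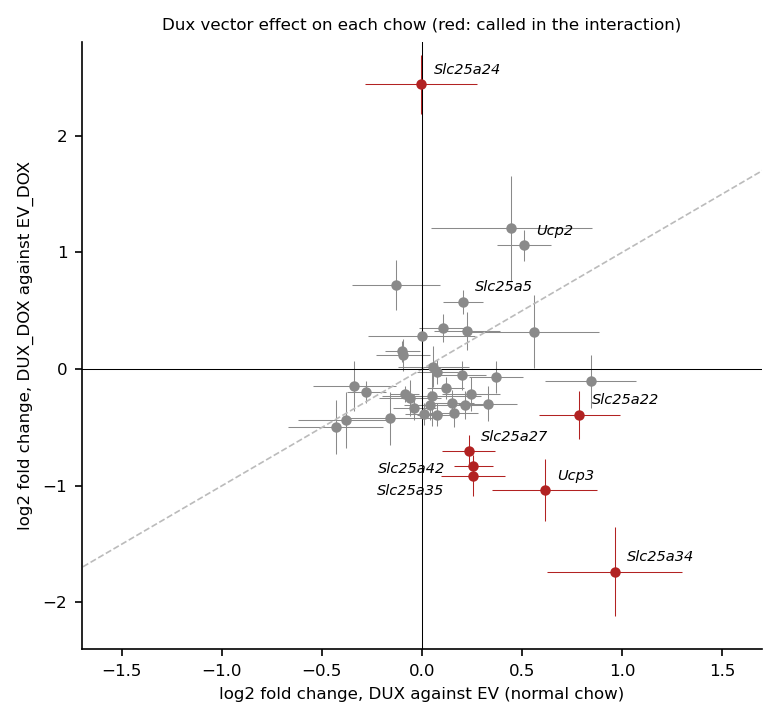
log2 fold change of 40 carrier genes for the Dux vector against the empty vector on standard chow (horizontal axis) and on doxycycline chow (vertical axis), with bars for the SE; red marks the 7 of these members called in the interaction and the dashed line marks equal effects. Slc25a24 sits at 0.00 and 2.44, and the other 6 red points lie to the right of 0 and below it.

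Genes around the carriers fell in some steps and not in others. The shares over all genes were 14.9% higher and 10.3% lower against EV_DOX, and 13.1% lower against DUX. Of 13 genes of the carrier import route (receptors of the outer membrane, small Tim chaperones and the TIM22 complex), 1 rose and 0 fell against EV_DOX, with a median of -0.08: the receptor Tomm20 rose by 0.36 (SE 0.10; edgeR, adjusted p = 0.0158), and the next smallest p was that of Timm10b (-0.26, adjusted p = 0.280). Among 6 enzymes of the malate-aspartate and glycerol phosphate shuttles, 1 fell against EV_DOX (Gpd2, -0.53, edgeR adjusted p = 0.00481; Mdh1 was at -0.42 and not called) and 5 fell against DUX, where the median was -0.48. Of 7 carnitine shuttle genes, 3 fell against EV_DOX and 4 against DUX, among them the matrix and muscle outer membrane carnitine palmitoyltransferases Cpt2 (-0.67 against EV_DOX, SE 0.11; edgeR, adjusted p = 0.000665) and Cpt1b (-0.73, SE 0.23, adjusted p = 0.0320). In DUX against EV, 0 genes of these shuttle enzyme and carnitine lists were called, with medians of 0.24 and 0.17. Of the carriers of the same routes, Slc25a12 was called against both EV_DOX and DUX, and Slc25a11 and Slc25a20 in edgeR against DUX and not against EV_DOX. DESeq2 and upper-quartile factors called Slc25a11 against EV_DOX as well (adjusted p = 0.0376 and 0.0448), as did the fits without EV_DOX 2 or DUX_DOX 1 (adjusted p = 0.0466 and 0.0331 in edgeR).

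Other mitochondrial transporters and channels were mixed, with 3 of 24 higher and 6 lower against EV_DOX and a median of -0.21. Over all genes, 14.9% were higher and 10.3% lower against EV_DOX, and 13.1% were lower against DUX. The inner membrane ABC transporter Abcb8, linked to mitochondrial potassium channels, fell by 0.59 on the log2 scale (edgeR, adjusted p = 0.000196). Of 80 oxidative phosphorylation genes taken by name pattern (which also took Atp5sl, not a subunit of ATP synthase), 5 fell and 0 rose against EV_DOX, with a median of -0.17, and 38 fell against DUX, with a median of -0.35. In DUX against EV, 0 of the 80 were called, but all values were above 0, with a median of 0.31 and a lowest value of 0.01. The subunits with the smallest p against EV_DOX were Ndufs1 of complex I (-0.42, adjusted p = 0.00769) and Sdha of complex II (-0.38, adjusted p = 0.00890) in edgeR.

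Regulators of mitochondrial gene expression moved both ways, 4 of 19 higher and 6 lower against EV_DOX, beside 14.9% and 10.3% of all genes. The thyroid hormone receptor Thra fell by 0.52 (SE 0.08; edgeR, adjusted p = 0.000303) and the coactivator Ppargc1a by 0.71 (SE 0.12, adjusted p = 0.000590), with Ppara, Ppargc1b, Esrrg and Gabpb2 also lower. The risers were Myc, Pprc1, Nrf1 and Esrrb. Ppara, a receptor through which fatty acids induce genes of their oxidation, fell by 1.02 (adjusted p = 0.00581 in edgeR).

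**Figure D5:**
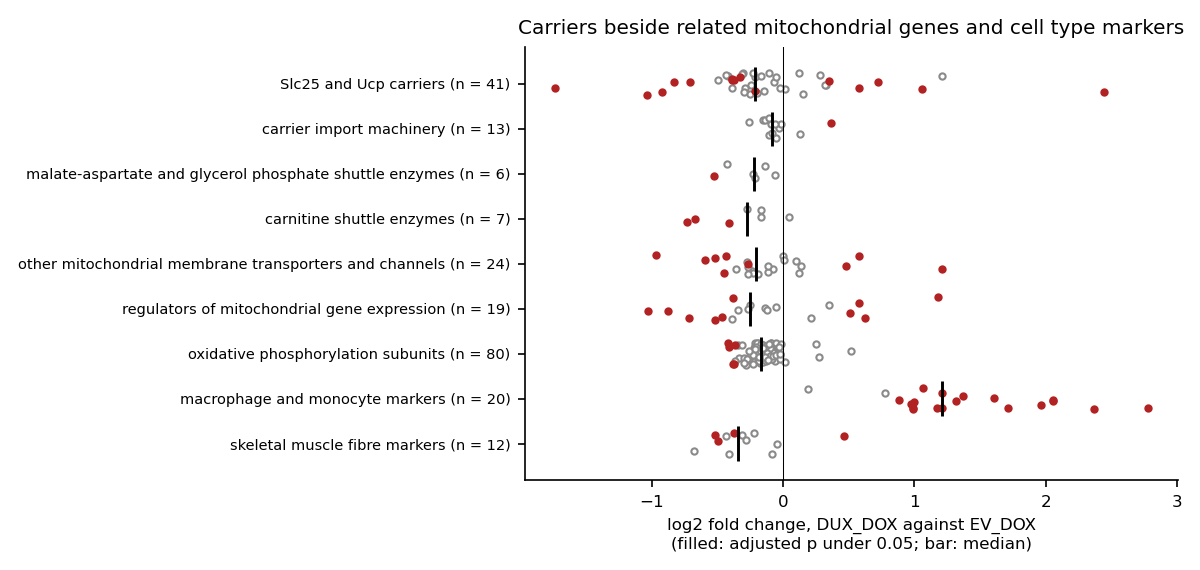
log2 fold change in DUX_DOX against EV_DOX for the 41 carriers, 6 lists of related mitochondrial genes, and macrophage and muscle fibre markers; filled points passed an adjusted p of 0.05, bars are medians and the vertical spread is for display. The carriers reach from -1.74 to 2.44, wider than the 80 oxidative phosphorylation genes, and macrophage markers centre on 1.21.

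Markers of several cell types also differed between the groups. Over all genes, 14.9% were higher and 10.3% lower against EV_DOX, and 16.5% were higher against DUX. The macrophage and monocyte markers had a median of 1.21 against EV_DOX, and 14 of 20 rose against DUX, with sums of 207 to 229 CPM in DUX and 146 to 225 in EV. None of the 20 was at 0 counts throughout, and the largest rise was that of Cd68 (2.78, adjusted p = 1.26e-06 in edgeR). The sums of EV and DUX overlapped, and 0 of the 20 markers were called in DUX against EV. A link between these markers and the carriers was not tested. Muscle fibre markers summed to 113204 to 128258 CPM in DUX_DOX and 139530 to 146733 in EV_DOX, with 3 of 12 lower (Actn3, Ryr1 and Pygm) and 1 higher (Des), and their part in the falls was not tested. Single markers of this list differed more than the sum. The highest log2 fold change was 3.94 for EV_DOX against EV, where 0 were called, and 3.19 for DUX_DOX against DUX. The medians of the 12 there were -0.03 and -0.30. Satellite cell markers were 2 of 7 higher, Vcam1 and Myod1, with summed levels of 76.0 to 76.9 CPM in DUX_DOX, 59.9 to 69.8 in EV_DOX, 52.3 to 59.2 in DUX and 53.2 to 57.7 in EV.

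The other marker lists gave few calls against EV_DOX, where 14.9% of all genes were higher and 10.3% lower. Endothelial markers had 1 of 10 lower, with sums of 497 to 512 CPM in DUX_DOX and 549 to 600 in EV_DOX. Fibro-adipogenic and fibroblast markers had 1 of 10 higher, at 2147 to 2948 and 1110 to 4719 CPM, and smooth muscle and pericyte markers 1 of 7 higher, at 615 to 660 and 599 to 704. Adipocyte markers (6 measured, 141 to 155 and 141 to 193 CPM), tenocyte markers (8, 239 to 323 and 133 to 969), Schwann cell markers (7, 111 to 145 and 52.7 to 202) and red blood cell markers (5, 169 to 255 and 86.1 to 234) gave none in edgeR. Against DUX, 4 of the 6 adipocyte markers fell, beside 13.1% of all genes, with sums of 169 to 212 CPM in DUX. Brown adipocyte markers had 1 of 3 higher (Zic1), the single neutrophil marker measured, Csf3r, was higher (1.12, adjusted p = 0.0213 in edgeR), and T and B cell markers are not analysed here.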

How the data were processed

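Poly-A selected RNA (200 ng per library, TruSeq reagents, per the labels) was sequenced from 12 muscles. The authors deposited raw read counts per gene, for which the submitters' processing notes name GRCm38, bcl2fastq 2.17.1.14, STAR and featureCounts. Not given in the sources used here are the STAR and featureCounts versions, the annotation and the strand setting. The lowest mean count of a gene in the table is 10.0, so genes below that are not analysed here, and counting error limits the members near it. Columns were assigned to groups by name, and pairs of libraries within a group differed by more than sampling noise (chi-square per degree of freedom 4.82 to 25.5).

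Counts were tested two-sided in R 4.3.3 by edgeR 4.0.16 (quasi-likelihood F test), on all 12 libraries with 1 mean per group, the default low-count filter (12751 genes left), TMM factors from 0.916 to 1.12 and Benjamini-Hochberg adjustment over all genes within each of 5 contrasts. Log2 fold changes carry a prior count of 0.125. CPM use the TMM-adjusted total of each library, and levels per kilobase divide them by the exon union length in GENCODE M21. Standard errors were worked back from the quasi-likelihood F statistic, as the absolute log2 fold change over its square root. The 95% intervals are 1.96 SE wide on each side, a normal approximation that is narrower than the F test would give. Promoter windows are those of RefSeq on GRCm38.p6. Alternatives were DESeq2 1.42.0, limma-voom (limma 3.58.1), upper-quartile and RLE factors, no filter or 1 CPM in 3 libraries, only the groups compared, a replicate block, and each library left out. The steps were tested on simulated data.

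The members and the gene lists were chosen with earlier results of these data known. Named with values were members past the threshold in any contrast, with values in each library for those with an absolute log2 fold change of at least 0.5 against EV_DOX and at least 5 CPM, the 5 highest per kilobase, members whose call changed when a library was left out, and of each related list the 2 genes with the smallest p. Slc25a1, Slc25a4, Slc25a12, Slc25a22, Slc25a25 and some list members were given further values after they had been seen. Dux itself is not analysed here, and 1 member and 1 list gene, counted in the totals, are not reported here by name.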

Additional observations from a re-analysis of the deposited data

Results flagged for a closer look

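By the interaction term of the edgeR quasi-likelihood fit, 6.97% of all genes had a higher and 3.43% a lower Dux vector effect on doxycycline. This effect differed between the chows for 8 carriers, with 2.44% of the 41 higher and 17.1% lower. The log2 difference, as the effect on doxycycline minus that on standard chow, for 7 of them was 2.45 for Slc25a24, -2.70 for Slc25a34, -1.65 for Ucp3, -1.18 for Slc25a22, -1.17 for Slc25a35, -1.09 for Slc25a42 and -0.94 for Slc25a27. The adjusted p-values (Benjamini-Hochberg, edgeR) were 0.000966, 0.00457, 0.0131, 0.0189, 0.00599, 0.000258 and 0.00715 in the same order. The value of Slc25a22 was not called without DUX 1 or DUX 3 (adjusted p = 0.0550 and 0.0522). The other 6 of these were called in each of the 19 alternatives. No group had more than 3 libraries, so no test for outlying libraries was run beyond leaving out each library in turn.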

How the results depend on the processing

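No member called in the edgeR fit changed direction under any alternative. Of the members called, 8 of 15 against EV_DOX, 12 of 20 against DUX and 6 of 8 in the interaction were called under every alternative, and 8, 3 and 8 further members were called in at least 1 alternative only. Leaving out 1 library at a time gave 3 to 5 members higher and 5 to 12 lower against EV_DOX, 2 to 4 higher and 12 to 16 lower against DUX, 0 to 1 higher for DUX against EV, and 1 to 2 higher and 5 to 13 lower in the interaction. The 5 lower against EV_DOX came without EV_DOX 3, and the 13 lower in the interaction without EV 2. With only the groups compared in the fit, 3 members were higher against EV_DOX, and DESeq2 called 2 higher for DUX against EV. The interaction had 11 members lower with DESeq2 and 11 with upper-quartile factors, in place of 7. The cause was not tested. DUX against EV and EV_DOX against EV gave 0 lower calls throughout.

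Replicate numbers gave no clear pairing over all groups. Of 18 same-numbered pairs across groups, 6 had a correlation of deviations over 0.1, within a range of -0.54 to 0.33. Libraries of the empty and the Dux vector on the same chow may share mice. Their same-numbered correlations were -0.12, 0.22 and 0.17 between EV and DUX. Between EV_DOX and DUX_DOX they were -0.16, 0.11 and 0.05. The block spans all 4 groups, so pairing by mouse within a chow was not tested. With the replicate number as a block, 5 members were higher and 8 lower against EV_DOX, 4 and 16 against DUX, 0 and 0 in the comparisons without induction, and 1 and 6 in the interaction. Upper-quartile factors moved the split of all genes against EV_DOX from 1905 higher and 1319 lower to 1709 and 1647, with a median log2 fold change of -0.04, and that of the carriers from 5 and 10 to 4 and 13. With 3 libraries a group, small changes such as that of Slc25a51 were at the limit of the test.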
